A study of Mus musculus with 8 samples.

Results

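The long noncoding RNAs Malat1, Neat1, Meg3, Miat, Rian and Snhg11 were followed in the developing mouse brain with and without Hdac3, a histone deacetylase that acts within co-repressor complexes. The set was fixed by symbol, and all 6 were found in each of the deposited tables, among 11496 genes of the neurosphere FPKM table and 12056 of the cortex FPKM table. The symbols had been chosen by their values in these same libraries, the FPKM and the authors' fold changes of KO against WT, so every comparison of these 6 RNAs between KO and WT is given as a description, without a test. FPKM normalizes fragments to transcript length and to sequencing depth. It does not correct for how well each RNA was captured, so orders and quotients between different RNAs below hold for FPKM only.

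Wild-type (WT) mice and mice with a conditional deletion of Hdac3 (KO) shared the C57BL/6 background. Neurospheres, floating cultures enriched in neural stem and progenitor cells, were grown from embryonic cerebrum (E16.5) to day 4 of culture and gave libraries WT 5, WT 6, KO 7 and KO 8. The dorsal cortex at postnatal day 0 (P0) gave WT 1, WT 2, KO 1 and KO 2, and its KO titles name Emx1, whose Cre acts in dorsal forebrain progenitors and their descendants and spares microglia, vessels and interneurons born ventrally. The labels give neither the Cre driver of the neurosphere KO nor the Cre status of the WT mice. There were 2 libraries per group, listed as separate brains in the design, and all 8 were poly(A)-primed. Each measures a whole culture or tissue, so a different share of cells of a type and a different amount of RNA per cell cannot be told apart in any value below.

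Long noncoding RNAs of this kind are transcribed, capped and processed like messenger RNAs but are kept largely in the nucleus, where several act as scaffolds for proteins. Malat1 gathers in nuclear speckles, which store splicing factors, and Neat1 is the architectural core of paraspeckles, bodies built on its long isoform by the proteins Nono, Sfpq and Pspc1. Meg3 and Rian are read from the maternal chromosome of the imprinted Dlk1-Dio3 domain, Miat (also called Gomafu) forms its own nuclear foci in neurons, and Snhg11 is a host transcript of small nucleolar RNAs that is abundant in neurons. Whole-cell RNA was sequenced, so the location of these RNAs in the cell was not measured.

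Hdac3 itself was read first, as a check of the labels. In cortex it fell from 48.1 and 46.1 FPKM in WT 1 and WT 2 to 26.8 and 27.1 in KO 1 and KO 2 (log2 fold change −0.78, SE 0.07, limma-trend adjusted p = 0.000319). In neurospheres it was 34.4 and 28.7 FPKM in WT and 18.03 and 20.48 in KO (log2 fold change −0.68, SE 0.16), which did not pass the threshold (limma-trend adjusted p = 0.104), although both KO libraries lay below both WT libraries. The authors' deposited table gave Hdac3 −0.52 (SE 0.09, adjusted p = 3.83e-07) in cortex and −0.29 (SE 0.18, adjusted p = 0.437) in neurospheres. No read totals were at hand; the intervals that Cufflinks gave for the 6 RNAs reached 0.987% to 17.4% of the value on either side in neurospheres and 0.823% to 12.2% in cortex, widest for Neat1, and cover counting and assignment error only. The median gene had a log2 fold change of −0.15 in neurospheres and −0.10 in cortex, so the scale of the tables itself sat slightly below 0.

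Malat1 and Neat1 lie side by side on the minus strand of chromosome 19 and end in a related element, shown here because the libraries were primed on poly(A) tails and these ends are not ordinary tails. Malat1 and the long isoform of Neat1 are cut by RNase P ahead of a tRNA-like structure, and their new 3′ ends are protected by a triple helix between U-rich stretches and a genome-encoded A-rich tract; the short isoform of Neat1 has an ordinary tail. The element was read from GENCODE M21 transcripts (GRCm38): bases 6630 to 6691 of the longest Malat1 transcript (6983 bases) and bases 20703 to 20771 of the longest Neat1 transcript (20771 bases), both of a single exon. Capitals mark the strings the pair shares, of 16 and 11 bases.
Malat1: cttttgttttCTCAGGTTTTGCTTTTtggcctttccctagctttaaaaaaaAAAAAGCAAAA
Neat1: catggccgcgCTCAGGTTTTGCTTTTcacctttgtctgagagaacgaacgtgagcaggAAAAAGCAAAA
The 16-base string was chosen as the longest that these ends share, so its presence in both was fixed by the choice. Among the last 400 bases of 122312 annotated transcripts, it occurred on the sense strand in 2 (0.00164%), these transcripts of Malat1 and Neat1. The A-rich string of 11 bases occurred in 143 (0.117%).

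By FPKM Malat1 was among the most abundant transcripts of both tissues. In WT cortex it measured 97.5 and 114.4 FPKM (106 ± 12, SD, n = 2), and in KO cortex 265.9 and 257.7 (262 ± 5.77, SD, n = 2). The KO libraries lay close together and far above both WT libraries, a ratio of means of 2.47 and a log2 fold change of 1.30 (SE 0.08). In neurospheres it measured 228.6 and 263.3 FPKM in WT (246 ± 24.5, SD, n = 2) and 263.4 and 358.7 in KO (311 ± 67.4, SD, n = 2). Here KO 7 was level with WT 6 and KO 8 stood higher, and the log2 fold change was 0.32 (SE 0.22). The level of Malat1 in KO cortex was near that of WT neurospheres, although the tables of the tissues had been normalized separately and this closeness was not tested.

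Neat1 had the lowest FPKM of the 6 and showed the largest ratio. In WT neurospheres it measured 2.93 and 3.72 FPKM (3.32 ± 0.559, SD, n = 2), and in KO neurospheres 10.8 and 16.01 (13.4 ± 3.70, SD, n = 2). In cortex it measured 4.29 and 5.09 FPKM in WT (4.69 ± 0.560, SD, n = 2) and 14.8 and 11.2 in KO (12.96 ± 2.56, SD, n = 2). In both tissues the lower KO library held more than 2 times the higher WT library. The ratios of means were 4.03 and 2.76, and the log2 fold changes 1.72 (SE 0.24) and 1.29 (SE 0.13). The annotation gives Neat1 a short and a long isoform that share their start, and a gene-level FPKM does not separate them; the long one is the isoform that builds paraspeckles.

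The pair did not keep one proportion. Malat1 exceeded Neat1 78.1 and 70.8 times in WT neurospheres and 24.4 and 22.4 times in KO neurospheres. In cortex the same quotient was 22.7 and 22.5 in WT, and 18 and 23.1 in KO 1 and KO 2. Only in neurospheres did the KO quotients lie apart from those of WT; in cortex the WT values fell inside the KO range, so both RNAs were higher there in about equal measure.

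**Figure D1:**
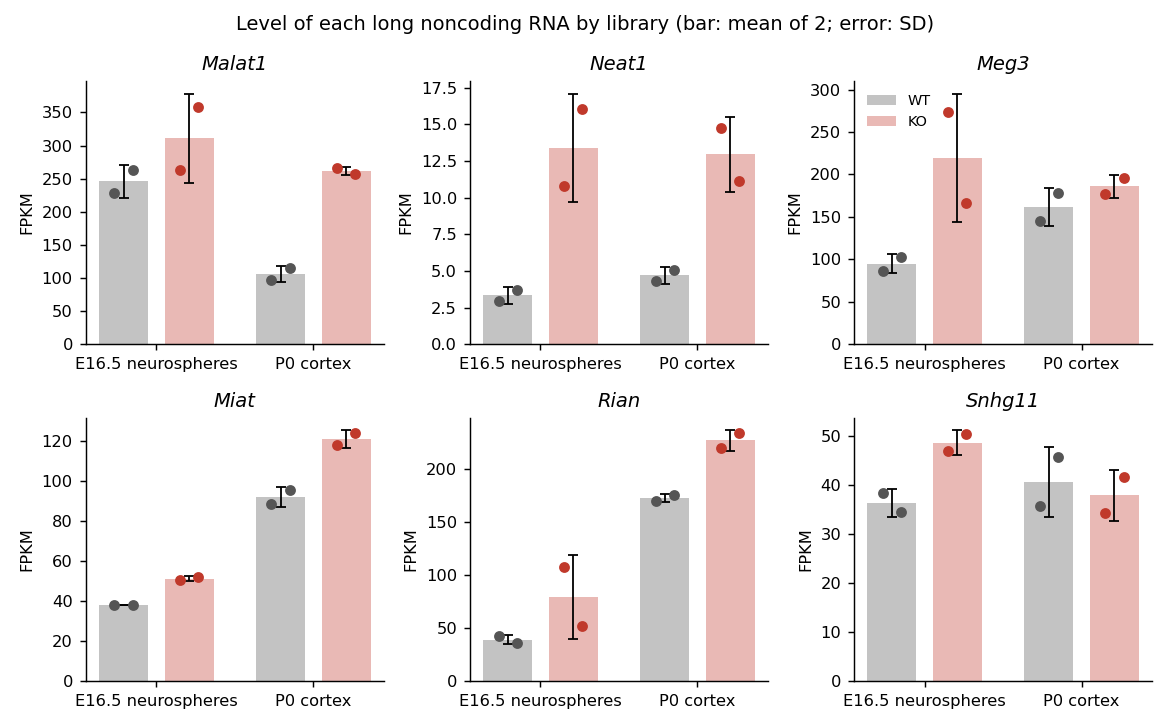
FPKM of each of the 6 RNAs in E16.5 neurospheres and P0 cortex, WT in grey and KO in red; points are the 2 libraries of a group, bars their mean and error bars the SD, on linear axes that start at 0 and differ between panels. Malat1 stands apart between groups in cortex (97.5 to 114.4 against 257.7 to 265.9), Neat1 in both tissues, and Meg3 and Rian in neurospheres with a wide gap between the KO libraries.

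The genes around Malat1 and Neat1 had not been used to choose them and were tested. Of the 5 nearest measured genes on each side, in the order of the reference gene table, 3 of 10 rose in KO cortex and 0 fell by limma-trend (4 and 0 at an unadjusted p under 0.05), beside 4.8% of the 11988 genes tested that rose and 17.7% that fell. The gene next to Neat1, Frmd8, a FERM-domain protein that binds iRhom and stabilizes the sheddase complex, went from 3.07 and 3.15 FPKM in WT 1 and WT 2 to 8.16 and 8.19 in KO 1 and KO 2. That is 2.63 times (log2 fold change 1.16, SE 0.09, limma-trend adjusted p = 0.00019), close to the size seen for Malat1 and Neat1, with almost no spread within either group. The authors' deposited table gave Frmd8 a log2 fold change of 1.33 (SE 0.13) in cortex. Frmd8 is read from the same strand as Neat1 and lies upstream of it.

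In neurospheres Frmd8 measured 7.64 and 5.39 FPKM in WT and 6.58 and 6.55 in KO (log2 fold change 0.03, SE 0.22, limma-trend adjusted p = 0.962), while Neat1 beside it was 4.03 times higher. Of the 10 neighbours 0 were called in neurospheres in either direction by limma-trend, beside 0.219% of the 11408 genes tested that rose and 0.929% that fell, and 0 had an unadjusted p under 0.05. Whether the effect on Frmd8 differed between tissues was not tested. The other neighbours that rose in cortex were Ltbp3, a binding protein of latent TGF-β (log2 fold change 0.47, SE 0.10, limma-trend adjusted p = 0.0127), and Cdc42ep2, an effector of the GTPase Cdc42 (0.37, SE 0.08, limma-trend adjusted p = 0.0135). Leaving out any 1 cortex library kept the call of Frmd8, at log2 fold changes of 1.14 to 1.17; that of Ltbp3 ended without WT 2 or without KO 2, and that of Cdc42ep2 without KO 1 or without KO 2.

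**Figure D2:**
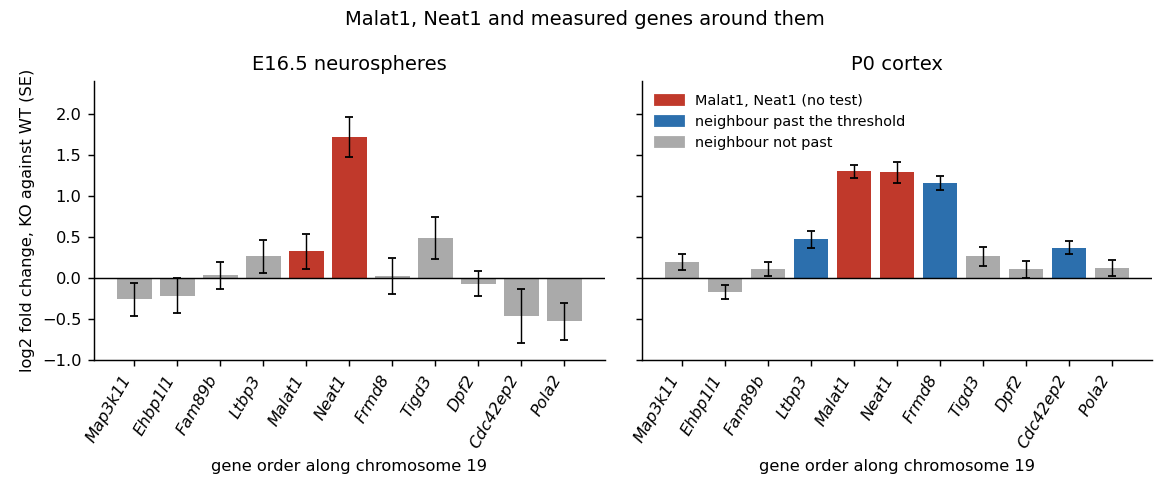
Log2 fold change of KO against WT, with its SE, for Malat1, Neat1 (red, shown without a test) and 9 of the measured genes around them, in their order along chromosome 19; blue bars passed an adjusted p of 0.05 in limma-trend. In cortex Malat1 (1.30), Neat1 (1.29) and Frmd8 (1.16) stand together above the other neighbours, and in neurospheres Neat1 (1.72) stands alone.

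Meg3 and Rian belong to a row of noncoding transcripts, with Mirg at its end, that is expressed from the maternal copy of chromosome 12 and carries many microRNAs and small nucleolar RNAs. The annotation used here places 2 microRNA genes inside Meg3 and 4 microRNA and 13 small nucleolar RNA genes inside Rian. The 300 bases around the start of Meg3 are shown because it is the first transcript of this row. They come from RefSeq (GRCm38.p6, chr12:109540746-109541045, plus strand, 250 bases before to 50 after the start). Capitals mark the TATA box TATAAA (2 overlapping matches on opposite strands), the CCAAT box and the cAMP response element TGACGTCA.
Meg3 promoter: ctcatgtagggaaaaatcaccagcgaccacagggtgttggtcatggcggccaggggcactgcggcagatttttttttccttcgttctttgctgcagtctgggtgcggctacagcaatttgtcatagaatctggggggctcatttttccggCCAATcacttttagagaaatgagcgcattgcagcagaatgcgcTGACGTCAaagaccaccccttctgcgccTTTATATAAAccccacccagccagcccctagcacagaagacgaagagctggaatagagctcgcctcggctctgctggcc
Searched on both strands, the TATA box occurred in 13.6% of 32851 RefSeq promoter windows, the CCAAT box in 37.4% and the cAMP response element in 1.79%. The Rian window held no match to the 6 motifs searched, which also included the related TGACGTG (2.01% of windows), the GC box GGGCGG (35.7%) and the nuclear receptor motif AGGTCA (16.3%), and it held 0 CpG dinucleotides, beside 13 in the Meg3 window shown and a median of 7 over all windows. RefSeq gives Meg3 another window at a later start (chr12:109545148-109545447), which held 1 CpG dinucleotide, a match to AGGTCA and none to the other motifs. A match is a string of letters and not a shown binding site.

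Meg3 measured 86.8 and 102.5 FPKM in WT 5 and WT 6 (94.6 ± 11.1, SD, n = 2) and 273.1 and 166.0 in KO 7 and KO 8 (220 ± 75.7, SD, n = 2). Rian measured 42.0 and 35.7 FPKM in WT (38.8 ± 4.48, SD, n = 2) and 107.5 and 51.5 in KO (79.5 ± 39.6, SD, n = 2). Both KO libraries lay above both WT libraries for each RNA, and KO 7 stood far above KO 8, by 1.64 times for Meg3 and 2.09 times for Rian. The log2 fold changes were 1.17 (SE 0.25) for Meg3 and 0.93 (SE 0.31) for Rian, and 1 library set much of their size: without KO 7 they were 0.81 and 0.40, and without KO 8 1.52 and 1.45.

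Mirg, which lies beyond Rian and was not one of the 6, followed the same libraries. It measured 5.65 and 5.14 FPKM in WT neurospheres and 15.6 and 6.93 in KO 7 and KO 8 (log2 fold change 0.84, SE 0.33), which did not pass the threshold (limma-trend adjusted p = 0.226), whereas the authors' deposited table gave 0.85 (SE 0.27) with an adjusted p of 0.0346. The quotient of Rian to Meg3 was 0.484 and 0.348 in WT and 0.394 and 0.310 in KO, with KO 7 inside the WT range and KO 8 just below it. Miat and Snhg11 did not share the gap between the KO libraries, with KO 7 at 0.97 and 0.93 times KO 8.

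In cortex Rian was separated between groups and Meg3 was not. Rian measured 169.5 and 175.2 FPKM in WT (172 ± 4.01, SD, n = 2) and 219.9 and 233.5 in KO (227 ± 9.64, SD, n = 2), a log2 fold change of 0.39 (SE 0.06). Meg3 measured 145.6 and 177.9 FPKM in WT (162 ± 22.8, SD, n = 2) and 176.7 and 195.8 in KO (186 ± 13.5, SD, n = 2). The KO 1 value of Meg3 fell just under WT 2, so its groups overlapped, with a log2 fold change of 0.21 (SE 0.10). Mirg rose from 4.18 and 4.05 FPKM to 5.37 and 5.43 (log2 fold change 0.32, SE 0.09, limma-trend adjusted p = 0.03), a call that ended when any 1 of the 4 cortex libraries was left out. The authors' deposited table gave Mirg 0.31 (SE 0.17) in cortex, with an adjusted p of 0.274. Rian stood at 1.16 and 0.985 times Meg3 in WT cortex and 1.24 and 1.19 times in KO cortex, above the quotients of the neurospheres, whose table was normalized separately.

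**Figure D3:**
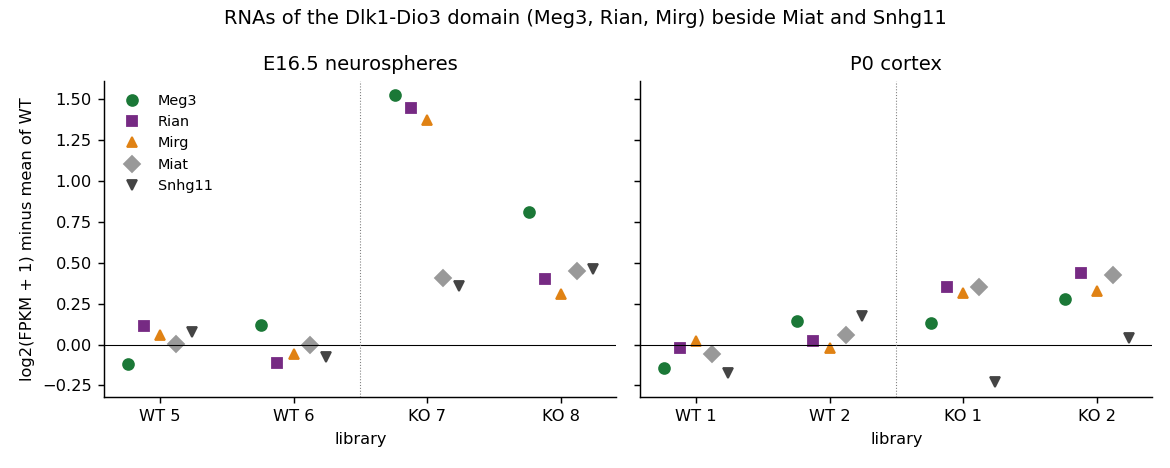
Difference of log2(FPKM + 1) from the mean of the WT libraries of the same tissue for Meg3, Rian and Mirg of the Dlk1-Dio3 domain, beside Miat and Snhg11, in each of the 8 libraries. In KO 7 the 3 domain RNAs stand together between 1.37 and 1.52, and in KO 8 between 0.31 and 0.81, whereas Miat and Snhg11 lie between 0.36 and 0.46 in both.

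The protein-coding partners Dlk1 and Rtl1, read from the paternal copy of the domain, were not in the FPKM tables and are named here outside the rule for named genes. The authors' deposited table gave Rtl1 a log2 fold change of 0.18 (SE 0.29) in neurospheres and 0.49 (SE 0.19) in cortex, with their adjusted p-values of 0.839 and 0.0694. It gave Dlk1 −0.40 (SE 0.21) in neurospheres, with no adjusted p, and 0.10 (SE 0.21) in cortex. Of the 10 measured genes flanking Meg3 and Rian 0 were called by limma-trend in neurospheres, with 2 at an unadjusted p under 0.05. In cortex Mirg and Dync1h1, the dynein heavy chain (log2 fold change 0.27, SE 0.06, limma-trend adjusted p = 0.0174), rose and Wars, a tRNA synthetase (−0.23, SE 0.07, limma-trend adjusted p = 0.0371), fell. The call of Dync1h1 ended without KO 1 or without KO 2, and that of Wars without any 1 of the 4 libraries.

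Miat carries tandem copies of TACTAAC, the sequence of the yeast intron branch point, through which it is known to bind the splicing factor SF1. The densest stretch of the longest Miat transcript (9163 bases, chromosome 5, GENCODE M21, GRCm38, minus strand), bases 5577 to 5641, is shown with the repeats in capitals.
Miat: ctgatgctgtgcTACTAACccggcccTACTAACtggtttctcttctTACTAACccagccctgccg
The transcript held 6 copies on the sense strand, between its bases 4941 and 5629, and 2 of 761 annotated transcripts of like length (0.263%), itself included, held at least as many.

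Miat was higher in KO by a similar ratio in both tissues. It measured 38.0 and 37.9 FPKM in WT neurospheres (37.9 ± 0.0980, SD, n = 2) and 50.5 and 52.1 in KO (51.3 ± 1.07, SD, n = 2). In cortex it measured 88.6 and 95.9 FPKM in WT (92.2 ± 5.17, SD, n = 2) and 118.1 and 124.3 in KO (121 ± 4.42, SD, n = 2). Its groups were separated in both tissues and the ratios of means were 1.35 and 1.31. The log2 fold changes were 0.43 (SE 0.14) and 0.39 (SE 0.07), and leaving out any 1 library gave 0.41 to 0.45 in neurospheres and 0.33 to 0.45 in cortex. Of its 10 measured neighbours, 1 was called, in cortex: Crybb1, a lens crystallin also present in young microglia, fell (log2 fold change −0.44, SE 0.11, limma-trend adjusted p = 0.0214), a call that ended without WT 2, without KO 1 or without KO 2, and also when the libraries were rescaled by median ratios.

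Snhg11, on chromosome 2, was higher in KO neurospheres and not in KO cortex. It measured 38.4 and 34.4 FPKM in WT neurospheres (36.4 ± 2.85, SD, n = 2) and 46.9 and 50.4 in KO (48.7 ± 2.50, SD, n = 2), a log2 fold change of 0.41 (SE 0.14) with separate groups. In cortex it measured 35.6 and 45.7 FPKM in WT (40.7 ± 7.12, SD, n = 2) and 34.2 and 41.5 in KO (37.9 ± 5.18, SD, n = 2). These groups overlapped, and the log2 fold change of −0.10 (SE 0.12) had no stable sign: leaving out single libraries gave −0.27 to 0.08, and rescaling by median ratios 0.02. The gene spans 5 annotated transcripts and 2 small nucleolar RNA genes; GENCODE lists it as protein-coding and RefSeq as long noncoding.

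One neighbour of Snhg11 rose in neurospheres. Slc32a1, the vesicular GABA transporter and a marker of inhibitory neurons, went from 10.4 and 9.46 FPKM to 19.5 and 21.6 (log2 fold change 0.98, SE 0.16, limma-trend adjusted p = 0.0471). In cortex Tgm2, a transglutaminase, rose (log2 fold change 0.33, SE 0.09, limma-trend adjusted p = 0.0357), and Ppp1r16b, a regulatory subunit of protein phosphatase 1 (−0.48, SE 0.09, limma-trend adjusted p = 0.0071), and Ralgapb, a GTPase-activating subunit for Ral (−0.27, SE 0.08, limma-trend adjusted p = 0.0384), fell. The calls of Tgm2 and Ralgapb ended without any 1 of the 4 cortex libraries and that of Ppp1r16b without KO 2. Over all 4 loci, 1 of 40 neighbours rose and 0 fell in neurospheres, beside 0.219% and 0.929% of all genes. In cortex 6 of 40 rose and 4 fell, beside 4.8% and 17.7% of all genes. After rescaling by median ratios the cortex split was 9 and 1.

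The order of the levels differed between tissues. In WT neurospheres Malat1 was highest, followed by Meg3, and Rian, Miat and Snhg11 came next with values that overlapped between 34.4 and 42.0 FPKM. In WT cortex Rian and Meg3 led with overlapping values, then Malat1, then Miat. In KO cortex no neighbouring pair in the order overlapped, and the order was Malat1, Rian, Meg3, Miat, Snhg11 and Neat1. Neat1 was last in all 4 groups, with a WT mean above that of 15.3% of the tested genes in neurospheres and 28.1% in cortex, whereas Malat1 exceeded 98.9% and 96.0%.

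In neurospheres all 6 RNAs had both KO libraries above both WT libraries, Malat1 only by the near-equal values of KO 7 and WT 6, a pattern found in 14.6% of all 11408 genes tested, and their median log2 fold change was 0.68 beside −0.15 over all genes. In cortex 4 of the 6 had it, beside 15.5% of all genes, with a median of 0.39 beside −0.10. Because these values chose the RNAs, nothing is read from these counts. The ranks of the fold change from the top were 5 for Neat1, 17 for Meg3 and 49 for Rian in neurospheres, and 6 for Malat1 and 7 for Neat1 in cortex.

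The authors' deposited table, made from read counts with DESeq2, gave the 6 RNAs the same directions as the FPKM. For cortex the authors' deposited table listed log2 fold changes of 1.34 (SE 0.09) for Malat1, 1.35 (SE 0.13) for Neat1, 0.64 (SE 0.09) for Rian, 0.48 (SE 0.08) for Miat, 0.27 (SE 0.16) for Meg3 and −0.00 (SE 0.19) for Snhg11. For neurospheres the authors' deposited table listed 1.68 (SE 0.23) for Neat1, 0.88 (SE 0.27) for Meg3, 0.69 (SE 0.28) for Rian, 0.53 (SE 0.13) for Snhg11, 0.52 (SE 0.13) for Miat and 0.43 (SE 0.15) for Malat1. At an adjusted p of 0.05 the authors' deposited table placed 4 of the 6 higher in each tissue, beside 3.5% of all genes in neurospheres and 6.36% in cortex, and again nothing is read from these counts. The depth behind these values was uneven: the authors' deposited table gave mean normalized counts of 502 and 730 for Neat1, and of 38329 and 35734 for Malat1, in neurospheres and cortex.

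**Figure D4:**
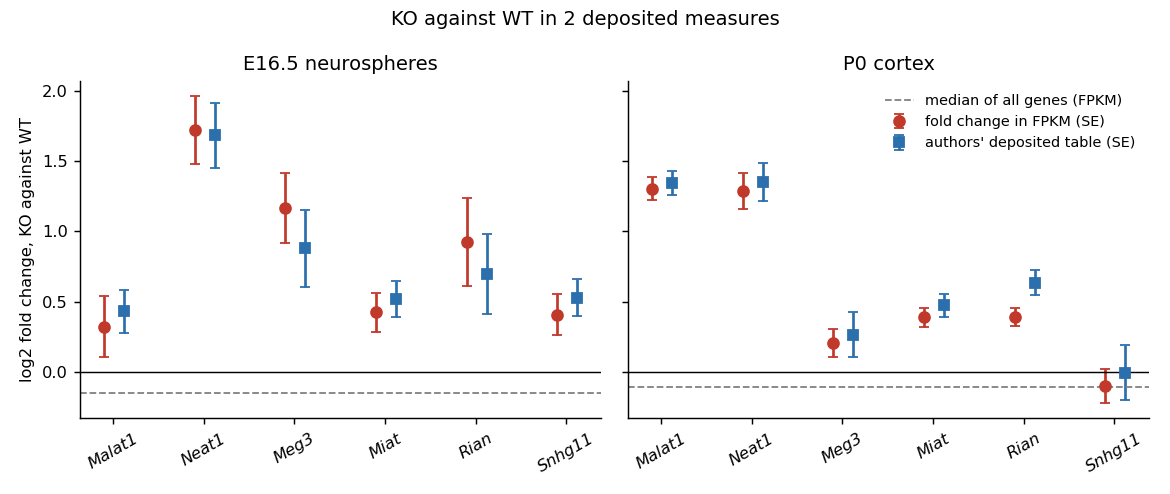
Log2 fold change of KO against WT for the 6 RNAs, from log2(FPKM + 1) (red circles) and from the authors' deposited DESeq2 table (blue squares), each with its SE; the dashed line is the median of all genes. Neat1 is high in both tissues (1.72 and 1.29 in FPKM), Malat1 only in cortex reaches that size (1.30 beside 0.32), and Snhg11 in cortex lies on the median line in FPKM (−0.10) and at 0 in the authors' deposited table.

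The proteins of the bodies that Neat1 and Malat1 occupy were measured as transcripts. By limma-trend 0 of 19 paraspeckle protein genes rose and 0 fell in neurospheres, with 1 at an unadjusted p under 0.05 and 0 called in the authors' deposited table (median log2 fold change 0.00, all genes −0.15). Nono went from 200.1 and 190.7 to 219.3 and 203.1 FPKM there, and Sfpq from 175.5 and 154.1 to 147.0 and 155.3. In cortex 1 rose and 3 fell (median −0.03, all genes −0.10), and after rescaling by median ratios 3 rose and 2 fell; the authors' deposited table called 4 higher and 1 lower. The clearest was Pspc1, a core paraspeckle protein, which fell from 38.6 and 36.8 to 27.5 and 27.0 FPKM (log2 fold change −0.45, SE 0.07, limma-trend adjusted p = 0.00306), a call kept without any 1 library. Rbm3, a cold-induced RNA-binding protein, fell (log2 fold change −0.35, limma-trend adjusted p = 0.00856), as did Hnrnpa1, a splicing repressor (−0.27, limma-trend adjusted p = 0.0264), while Ubap2l, a stress granule protein, rose (0.21, limma-trend adjusted p = 0.044). These calls ended without KO 1 or without KO 2, and for Hnrnpa1 and Ubap2l without WT 2 as well.

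Of 23 genes of nuclear speckle and SR splicing proteins 0 were called by limma-trend in neurospheres, with 0 at an unadjusted p under 0.05 and 0 called in the authors' deposited table (median −0.04). In cortex Srrm2, a speckle scaffold, rose (log2 fold change 0.30, limma-trend adjusted p = 0.0181), and Clk1, a kinase of SR proteins (−0.33, limma-trend adjusted p = 0.0185), and Srsf6, an SR protein (−0.23, limma-trend adjusted p = 0.0396), fell. The median was −0.05, and each of these calls ended without WT 2 and also without KO 2; rescaling by median ratios gave 3 higher and 0 lower, and the authors' deposited table called 2 higher and 0 lower. Among 16 genes of the nuclear exosome and noncoding RNA processing 0 were called by limma-trend in neurospheres, with 1 at an unadjusted p under 0.05 and 0 called in the authors' deposited table. In cortex Pabpn1, the nuclear poly(A)-binding protein, rose (log2 fold change 0.35, limma-trend adjusted p = 0.0251) and Exosc9, an exosome subunit, fell (−0.22, limma-trend adjusted p = 0.0485); both calls ended without WT 2, without KO 1 or without KO 2, and the authors' deposited table called 1 of 17 such genes higher and 0 lower.

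Other named long noncoding RNAs were called in both directions by limma-trend. Of 36 measured in neurospheres 1 rose and 2 fell, beside 0.219% and 0.929% of all genes (median −0.23, all genes −0.15). Dlx1as, antisense to the interneuron factor Dlx1, went from 20.9 and 15.8 to 40.1 and 38.3 FPKM (log2 fold change 1.07, SE 0.17, limma-trend adjusted p = 0.0471). The host transcripts of small nucleolar RNAs Snhg6, from 62.3 and 38.0 to 18.4 and 18.1 FPKM, and Snhg12, from 41.4 and 37.7 to 21.4 and 21.8, fell (both with limma-trend adjusted p = 0.0487), opposite to the higher Snhg11. Both calls ended at a pseudocount of 0.1 and with no filter. The authors' deposited table called neither, at −0.75 (adjusted p = 0.0925) for Snhg6 and −0.43 (adjusted p = 0.393) for Snhg12. How strand was counted was not given, so Dlx1as and Dlx1 may share reads. No gene of the neurosphere table was called without WT 5 or without WT 6, so each neurosphere call given here ends there.

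In cortex 5 of 40 rose and 5 fell, beside 4.8% and 17.7% of all genes (median −0.00, all genes −0.10); rescaling by median ratios gave 9 and 2. The largest changes were in 2810032G03Rik (log2 fold change −0.67, SE 0.13, limma-trend adjusted p = 0.00882), Snhg20 (0.63, SE 0.13, limma-trend adjusted p = 0.0113), Pvt1, a neighbour of Myc (−0.45, SE 0.09, limma-trend adjusted p = 0.0111), and the imprinted H19 (0.38, SE 0.09, limma-trend adjusted p = 0.0194). The first held without any 1 library; Snhg20 and Pvt1 lost their calls without KO 2, and H19 without WT 2, KO 1 or KO 2. The authors' deposited table called 4 of 33 such RNAs higher in neurospheres, beside 3.5% of all genes, and 5 of 38 in cortex, beside 6.36%, and 0 lower in either. Of these RNAs 3 are named here outside the rule for named genes. Kcnq1ot1, a nuclear RNA of another imprinted cluster, was absent from the FPKM tables. The authors' deposited table gave it 0.82 (SE 0.23, adjusted p = 0.0128) in neurospheres and 0.08 (SE 0.16) in cortex. It gave Sox2ot 0.90 (SE 0.19, adjusted p = 0.000181) and −0.02 (SE 0.12), and Tug1, called in neither tissue, 0.20 (SE 0.15) and 0.02 (SE 0.08). Sox2ot was in the neurosphere FPKM table, and limma-trend did not call it there.

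Imprinted genes outside the 6 moved in both directions. Of 22 in neurospheres 0 rose by limma-trend (4 lay higher at an unadjusted p under 0.05, and the authors' deposited table called 4 of 24 higher) and 1 fell, Grb10, an adaptor that restrains insulin signalling (log2 fold change −0.93, SE 0.15, limma-trend adjusted p = 0.0442). Of 23 in cortex 4 rose (H19, Mirg, Mest and Nnat, at log2 fold changes of 0.30 to 0.38) and 3 fell; rescaling by median ratios gave 8 and 3, and the authors' deposited table called 7 of 29 higher and 2 lower. Those that fell were Nap1l5 (−0.57, SE 0.07, limma-trend adjusted p = 0.00197), the zinc-finger gene Peg3 (−0.40, SE 0.08, limma-trend adjusted p = 0.011) and Sgce, a sarcoglycan (−0.38, SE 0.09, limma-trend adjusted p = 0.0146). The 4 that rose lost their calls without WT 2 and without KO 1, Peg3 without KO 1 or without KO 2, and Sgce without KO 2.

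RNAs that an ordinary poly(A)-primed library should hold little of were followed because Malat1 ends without an added tail. In cortex all 3 measured rose: the ribosomal precursor Rn45s from 289.3 and 265.8 to 830.4 and 3438 FPKM (log2 fold change 2.60, SE 0.49, limma-trend adjusted p = 0.00819), the RNase MRP component Rmrp from 5.68 and 3.04 to 14.6 and 149 (3.22, SE 0.79, limma-trend adjusted p = 0.0213), and Lars2, whose locus matches mitochondrial ribosomal RNA, from 31.8 and 28.3 to 98.5 and 288.5 (2.45, SE 0.37, limma-trend adjusted p = 0.00338). Both KO libraries lay above both WT libraries for each, and KO 2 stood far above KO 1. Rmrp lost its call without WT 2, and its log2 fold change ran from 1.59 to 4.85 with single libraries left out. Without KO 2 the log2 fold changes were 1.58 for Rn45s, 1.59 for Rmrp and 1.68 for Lars2, all still called, beside 1.32 for Malat1 and 1.47 for Neat1. The authors' deposited table gave these 3 smaller values in cortex: 0.48 (SE 0.17, adjusted p = 0.042) for Rn45s, 0.24 (SE 0.12, adjusted p = 0.213) for Rmrp and 0.62 (SE 0.19, adjusted p = 0.0115) for Lars2. The authors' fold changes may be drawn toward 0, so nothing is read from this gap in size. Of 4 RNAs of this list with an adjusted p there, 3 were called higher and 0 lower. One was Rpph1, absent from the cortex FPKM table and named here outside the rule for named genes, at 0.75 (SE 0.19, adjusted p = 0.00116). In neurospheres Rn45s and Lars2 were not called, at log2 fold changes of −0.25 and −0.45. The part of RNA without an added tail in the values of Malat1 and Neat1 was not tested.

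Marker genes of cell types shifted in the same libraries. In neurospheres 8 of 13 markers of GABAergic interneurons rose, with a summed level of 859 to 1059 FPKM in WT and 1436 to 1440 in KO and none at 0; Dlx2 went from 11.2 and 11.2 to 26.2 and 29.6 FPKM (log2 fold change 1.25, limma-trend adjusted p = 0.0282) and Lhx6 from 29.9 and 28.2 to 62.9 and 61.6 (1.07, limma-trend adjusted p = 0.0309). Of 16 general neuronal markers 0 were called there by limma-trend, although 7 lay higher and 1 lower at an unadjusted p under 0.05 and the authors' deposited table called 7 higher, with a sum of 1828 to 2212 in WT and 2106 to 2327 in KO. Of 12 radial glia markers 0 rose and 1 fell, while 0 had a log2 fold change above 0, 7 lay lower at an unadjusted p under 0.05 and the authors' deposited table called 3 lower, with a sum of 1499 to 1791 in WT and 992 to 1179 in KO. Of 10 astrocyte markers 0 rose and 2 fell (4 lower at an unadjusted p under 0.05, 2 in the authors' deposited table), and their sums also did not overlap, at 558 to 654 in WT and 398 to 520 in KO. Of 11 oligodendrocyte-lineage markers 1 rose, Mbp (log2 fold change 1.19, limma-trend adjusted p = 0.0471), while 3 lay higher and 4 lower at an unadjusted p under 0.05 and the authors' deposited table called 1 higher and 2 lower (sums 254 to 286 and 244 to 257). Few markers of cells from outside the neural lineage were in the table. Both meningeal markers measured lay higher, at sums of 5.09 to 6.06 in WT and 13.3 to 14.7 in KO, and of them Dcn, the matrix protein decorin, rose (log2 fold change 1.74, limma-trend adjusted p = 0.0358); the authors' deposited table called 4 of 7 such markers higher. The 1 red cell marker, the globin gene Hba-a1, rose (1.56, limma-trend adjusted p = 0.0471). Of 11 listed vascular markers only 1 was measured, the glucose transporter gene Slc2a1, and it fell (−1.94, limma-trend adjusted p = 0.00972). With the rest of that list unmeasured, its fall is not read as a change in vessels. The authors' deposited table gave an adjusted p for 2 vascular markers, with 1 called higher and 1 lower. The 1 microglial marker was not called by limma-trend but lay lower at an unadjusted p under 0.05. Its level was 5.18 to 8.44 FPKM in WT and 2.75 to 4.45 in KO. The part of these shifts in the values of the 6 RNAs was not tested.

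In cortex 8 of 16 neuronal markers rose and 2 fell, with sums of 4026 to 4184 FPKM in WT and 4505 to 4556 in KO; Nefl, a neurofilament, rose from 48.3 and 48.3 to 112 and 93.9 (log2 fold change 1.07, limma-trend adjusted p = 0.000283). Astrocyte markers rose in 5 of 10 cases and fell in 2, with sums of 499 to 525 in WT and 772 to 849 in KO, led by Gfap (log2 fold change 2.09, limma-trend adjusted p = 1.65e-05). Markers of the oligodendrocyte lineage rose in 6 of 11 cases, with sums of 76.3 to 89.2 and 103 to 117. Of 12 microglial markers 7 rose and 1 fell (sums 73.4 to 80.2 and 91.8 to 105), of 11 endothelial markers 1 rose and 1 fell (138 to 139 and 147 to 154), and of 10 meningeal markers 6 rose (136 to 139 and 167 to 173). Radial glia markers rose in 5 of 12 cases and fell in 1 (1166 to 1268 and 1542 to 1652), interneuron markers rose in 0 of 13 and fell in 1 (347 to 387 and 306 to 347), and 0 of 4 red cell markers were called. No marker measured was listed at 0. Leaving out single cortex libraries moved these counts: 1 to 5 microglial, 1 to 5 meningeal, 4 to 7 neuronal and 3 to 5 radial glia markers then rose, with the fewest microglial, meningeal and radial glia calls without KO 1 and the fewest neuronal calls without KO 2. Over all genes of the cortex fit 4.8% rose and 17.7% fell. After rescaling by median ratios 4 endothelial and 6 astrocyte markers rose, and 0 of either list fell. The authors' deposited table called 3 endothelial and 5 astrocyte markers higher and 0 of either lower. It called 4 microglial markers higher and 1 lower. The part of these shifts in the levels of the 6 RNAs was not tested.

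The genes whose pattern over the 8 libraries was nearest to each RNA were found among 10947 genes measured in both tissues, as the smallest root-mean-square difference of log2(FPKM + 1) taken from the WT mean of the same tissue. For Rian the nearest was Mirg (0.0678), then Meg3 (0.218), and for Meg3 they were Col5a2 (0.215), Rian (0.218) and Mirg (0.230). For Malat1 they were Bcas1 (0.232), Frmd8 (0.261) and Gpr17 (0.265), of which Bcas1 and Gpr17 mark newly formed oligodendrocytes. Neat1 had no match at a small distance: its closest were the myelin gene Mbp (0.402), Rasgef1b (0.413) and Crabp1 (0.465). Its neighbour Malat1 stood at 0.702, still at rank 36 of nearness to Neat1 among the 10947 genes.

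The nearest to Miat were Kif5a, a kinesin of axons (0.0626), Rab6b, a neuronal Rab protein (0.0655), and Dusp8, a phosphatase of MAP kinases (0.0660). For Snhg11 they were Acta2 (0.0775), Cpeb3 (0.0862) and Adamts17 (0.0916). These distances are a description over 8 libraries in 4 groups of 2, and an RNA with a small shift has near matches more easily than one with a large shift.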

How the data were processed

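Total RNA of 4 neurosphere and 4 cortex libraries was sequenced with a stranded, oligo-dT-primed kit, per the labels. Per the submitters' processing notes, the authors ran Cufflinks, Bowtie, STAR, featureCounts, DESeq2 and Trim Galore on build mm9; tool versions were not stated. The deposited FPKM values come with the authors' Cufflinks interval bounds. The ratio of KO to WT in the same deposited tables was not used. The deposited DESeq2 tables hold a signal column (mean normalized count), the log2 fold change, its SE, a test score and raw and adjusted p-values, all the authors' own. Their SEs are small even at very low counts, such as 0.07 at a mean count of 0.50 for 1 RNA in neurospheres. Their fold changes may therefore be drawn toward 0, and their sizes need not match those from FPKM. The deposited gene ontology tables, with an odds ratio and p-value per term, named none of the 6 RNAs and were not used. The FPKM tables list genes with WT values from about 1 FPKM upward, so a gene silent in WT is outside them. Rows with a date for a symbol (20 and 21) and repeated symbols (20 and 29) were dropped.

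Values of genes averaging 1 FPKM or more were taken to log2(FPKM + 1) and fitted within each tissue with limma-trend (limma 3.58.1, R 4.3.3, two-sided), with a Benjamini-Hochberg threshold of 0.05 over every gene of the fit. Fold changes on this scale understate those of low genes. The procedure was tested on simulated data with planted changes and noise drawn independently for each gene and library. Effects shared by the genes of a library were not simulated. Tables and figures were made with Python 3.11.15, pandas 2.3.3 and matplotlib 3.10.9. The 2 tissues were normalized separately and no test was made across them. The design lists separate brains, and p-values rest on the spread between 2 libraries per group.

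The 6 RNAs, the gene lists and the alternatives were chosen with earlier results of these data known. One gene of the tables is not reported here by name. Named genes were the 6 RNAs, from each list and from the neighbours up to 4 called genes with the largest change (lists of 5 or fewer calls whole), the 3 nearest patterns per RNA, and Hdac3. Sequences, gene order and isoforms came from GENCODE M21 and RefSeq GRCm38.p6, a later build than mm9, so counted gene models may differ; 5 of the 6 RNAs had a promoter window. Alternatives changed the pseudocount, the filter, the scaling, the libraries fitted and each library in turn.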

Additional observations from a re-analysis of the deposited data

How the results depend on the processing

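A pseudocount of 0.1 and a rescaling of the libraries by median ratios gave 24 other log2 fold changes of the 6 RNAs; the filters, the fit of all 8 libraries and the replicate block leave a gene's own fold change as it is. Of the 24, 20 stayed within the spread of the libraries, among them Snhg11 in cortex, whose sign changed under rescaling (−0.10 to 0.02). The other 4 came from rescaling, which lifts the median gene by 0.15 in neurospheres and 0.10 in cortex: Miat 0.59 and Snhg11 0.57 in neurospheres, and Miat 0.51 and Rian 0.51 in cortex. With single libraries left out, log2 fold changes ranged from 0.10 to 0.55 for Malat1, 1.45 to 1.98 for Neat1, 0.81 to 1.52 for Meg3 and 0.40 to 1.45 for Rian in neurospheres, and from 1.19 to 1.42 for Malat1, 1.10 to 1.47 for Neat1 and 0.06 to 0.35 for Meg3 in cortex. The counts over all genes moved more. In neurospheres 25 genes rose and 106 fell; a pseudocount of 0.1 gave 11 and 54, rescaling 52 and 78, a fit of all 8 libraries 330 and 1340, and single libraries left out 0 to 55 and 0 to 617. Without WT 5 or without WT 6 limma-trend called 0 genes, with 1227 and 2672 at an unadjusted p under 0.05. Where 1 library was left in a group, it was taken to vary like the other group. In cortex 575 rose and 2124 fell; rescaling gave 1146 and 925, a fit of all 8 libraries 1 and 5, and single libraries left out 198 to 625 and 609 to 1535. The fit of all 8 libraries uses 1 spread for both tissues, and the calls of Frmd8, Pspc1 and Nap1l5 ended in it (limma-trend adjusted p = 0.0655, 0.25 and 0.186). So did the cortex calls of Gfap, Nefl, Rn45s and Lars2 (limma-trend adjusted p = 0.0655, 0.0655, 0.0971 and 0.0698). Further named cortex calls ended there too, among them Srrm2, Rbm3, H19, Mirg, Dync1h1, Ppp1r16b, Peg3 and Sgce. Rescaling ended the calls of Hnrnpa1, Clk1, Srsf6, Exosc9, Wars, Ralgapb and Crybb1 in cortex and of Grb10 and Snhg12 in neurospheres. A pseudocount of 0.1 ended the calls of Dlx1as, Snhg6, Snhg12, Grb10, Slc32a1, Mbp, Dcn and Hba-a1 in neurospheres and of Mest in cortex. The cortex libraries share replicate numbers 1 and 2 without a stated pairing; with a replicate block 559 rose and 1968 fell, the calls of Ubap2l, Srsf6, Exosc9, Wars and Ralgapb ended, and the deviations of same-numbered libraries correlated at −0.0955 across 11988 genes. Neurosphere numbers are not shared between groups. Precision is limited by the 2 libraries per group.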
